A study of Bos taurus with 27 samples.

Results

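Bovine parthenotes at the 8-cell stage were compared with 8-cell embryos from in vitro fertilisation (IVF), across 19 of the 27 RNA libraries of the series. The parthenote group held 11 libraries from Bos taurus, and the IVF group held 8 libraries from first-generation (F1) embryos that the labels give as a cross of Bos taurus and Bos indicus. The libraries were chosen by their labels alone, and each transcript and locus of the deposited table was considered. All were polyadenylated RNA amplified with a low-input SMART-Seq kit, and the labels give culture under oil in SOF medium at 38.5 C. They are silent on how parthenotes were activated, on how many embryos or cells went into a library and on whether cultures were separate. The p-values therefore measure the spread between these libraries, which may be technical. Request numbers also differ, 18062 for the IVF libraries and 19058 for the parthenotes, so the request, the breed cross and the lack of fertilisation cannot be told apart. No request holds both groups, so no value within a request could be had. The remaining 8 libraries, late 8-cell IVF embryos of the same cross as the IVF group and the same request as the parthenotes, entered no test of the main comparison.

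A parthenote develops from an oocyte that starts to divide without sperm. Its chromosomes all come from the mother, so genes that are expressed only from the paternal copy, a class of imprinted genes, have no active copy. In cattle the embryo lives on RNA stored by the oocyte through its first divisions, and its own genome becomes broadly active around the 8-cell stage while stored RNA is degraded. A comparison at this stage sets the activity of a maternal-only genome beside that of a fertilised one, each on top of its own oocyte store.

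The table gave FPKM (fragment counts divided by transcript length and by the library's mapped fragments) for 173449 transcripts at 116933 loci, none of them with a gene name. The stage and identity of the embryos were therefore not checked against marker genes, and imprinted genes were not analysed here. Reads of a locus and of an antisense partner cannot be told apart, since the kit is not stated to keep strand. FPKM are relative within a library, so fewer cells and less RNA per cell cannot be told apart. Sequencing depth relative to the median library, read from whole-read steps among low values, ran from 0.799 to 1.04 in IVF libraries and from 0.785 to 1.59 in parthenotes. A library stood apart among the parthenotes: replicate 4 had a median Spearman correlation of 0.666 with the other parthenotes and 0.571 with the IVF libraries. It was the highest of the 19 libraries by at least 2-fold at 662 of the 11972 loci tested, against at most 47 for any other library. It was the lowest by that margin at 174 loci, against at most 29 elsewhere. Its 10 highest loci held 7.74% of its FPKM sum over loci, the smallest such share of the 19 libraries.

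Parthenote libraries differed more among themselves than IVF libraries did. The distance of a library to its own group, taken as 1 minus its median Spearman correlation with the other libraries of the group, ran from 0.169 to 0.196 in IVF embryos, with a median of 0.176. In parthenotes it ran from 0.209 to 0.334, with a median of 0.224. Every parthenote was farther from its group than every IVF library was from its own. The mean difference was 0.0580 (exact two-sided permutation test, p = 2.65e-05 over 75582 assignments, adjusted p = 7.94e-05 over 3 measures per library). The test exchanged finished distances between the groups and did not compute them anew for each assignment. Distances within a group share library pairs and are not independent, so the p-values of this measure are not exact in size. The parthenotes other than replicate 4 ran from 0.209 to 0.242. With replicate 4 left out of every distance, the mean difference was 0.0396 (exact permutation test, adjusted p = 6.86e-05). Relative depth also varied more among parthenotes (SD 0.241, n = 11) than among IVF libraries (SD 0.0762, n = 8). Its part in the distances was not tested. With only the 4 parthenotes of lowest depth, the mean difference was 0.0411 (exact permutation test, adjusted p = 0.00606). At single loci, the standard deviation of log2(FPKM + 1) was larger among parthenotes than among IVF libraries at 9111 loci (76.1% of those tested), and at 8110 (67.7%) without replicate 4. Its median over loci was 0.346 in IVF libraries, 0.481 in parthenotes and 0.413 in parthenotes without replicate 4.

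**Figure D1:**
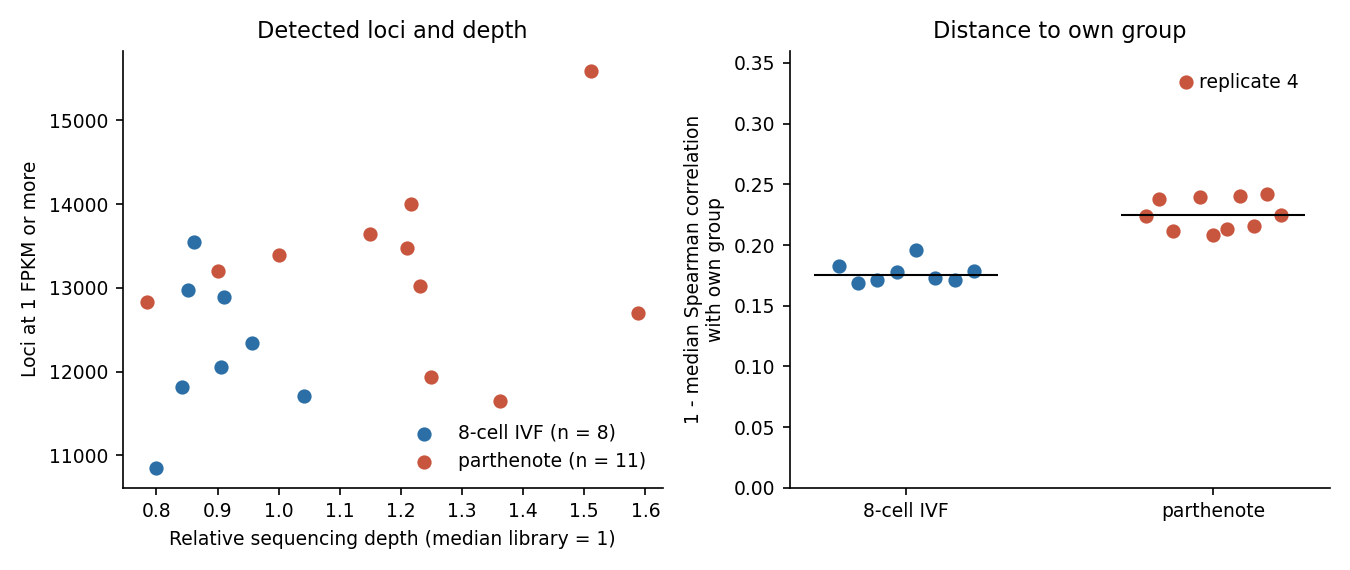
The left plot sets detected loci (1 FPKM or more) against relative sequencing depth, 1 point per library. The right plot gives 1 minus the median Spearman correlation of each library with its own group, with a line at the group median; all 11 parthenotes lie above all 8 IVF libraries, and parthenote replicate 4 is farthest at 0.334.

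Detected loci overlapped between the groups. IVF libraries held from 10849 to 13545 loci at 1 FPKM or more, with a median of 12199, and parthenotes from 11644 to 15593, with a median of 13199. The ranges overlapped widely, and the mean difference of 950 loci did not pass (exact two-sided permutation test, adjusted p = 0.0729 over 3 measures). It passed without IVF replicate 8 (1132 loci, adjusted p = 0.0324), without parthenote replicate 4 (1078 loci, adjusted p = 0.0383) and without parthenote replicate 9 (1108 loci, adjusted p = 0.0261), each by the exact permutation test. Between IVF libraries and the 4 shallowest parthenotes the difference was 995 loci and did not pass (exact permutation test, adjusted p = 0.0818). Those 4 had relative depths up to 1.15, beside 1.04 at most in IVF libraries. The share held by the 10 highest loci was 15.8% ± 1.68 (SD, n = 8) in IVF embryos and 14.02% ± 3.09 (SD, n = 11) in parthenotes, which did not pass either (exact permutation test, adjusted p = 0.15). The difference of -1.82 percentage points was -1.19 without parthenote replicate 4 and -0.193 with the 4 shallowest parthenotes.

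Locus by locus, more loci were higher in parthenotes than lower. Of the 11972 loci tested, 815 were higher (6.81%) and 337 lower (2.81%), together 1152 or 9.62%, by limma with a Benjamini-Hochberg adjusted p under 0.05. A locus expressed only in parthenotes passes the filter of 1 FPKM in 8 libraries more easily than one expressed only in IVF embryos. The part of this in the split was not tested. At 5 FPKM in 8 libraries 382 were higher and 233 lower of 3967, and with no filter 138 and 75 of 75279. Over all 11972 loci the log2 fold change had a median of 0.01, a value that scaling within each library largely sets. Changes were moderate: the median was 0.86 among the higher loci and -0.65 among the lower ones on the log2(FPKM + 1) scale, which understates the change of low loci. Of the higher loci 264, and of the lower ones 41, changed by 2-fold or more. A 4-fold change was reached by 8 and 1, and the extremes were 2.60 and -2.19. The excess of higher loci depended on how libraries were scaled. It was 656 against 475 after rescaling to a common FPKM sum, 749 against 540 with median-of-ratios factors and 706 against 695 with quantile normalization. With the 4 shallowest parthenotes the counts were 59 against 69. That fit kept the filter of 1 FPKM in 8 libraries, which a locus expressed only in those 4 parthenotes cannot pass. Its balance of higher and lower loci is therefore not comparable with that of all parthenotes. In none of the 3 scalings was a locus called in the opposite direction.

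How many loci passed changed when depth entered the fit and when single libraries were left out. With relative depth as a covariate, 64 loci were higher and 29 lower by limma. All of the 1152 loci kept their direction there and 1020 had an unadjusted p under 0.05, at log2 fold changes whose medians were 0.81 and -0.68 for the higher and lower loci, with standard errors 1.33 times as large in the median. With the 4 shallowest parthenotes alone, a fit on fewer libraries, 128 of 9540 loci tested were called in all. What part depth, larger standard errors or fewer libraries had in these lower counts was not tested. Without IVF replicate 1, 2 or 7 the total was 670, 727 and 722. Without parthenote replicate 4, 928 loci were higher (7.91%) and 361 lower (3.08%) of 11735 tested.

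**Figure D2:**
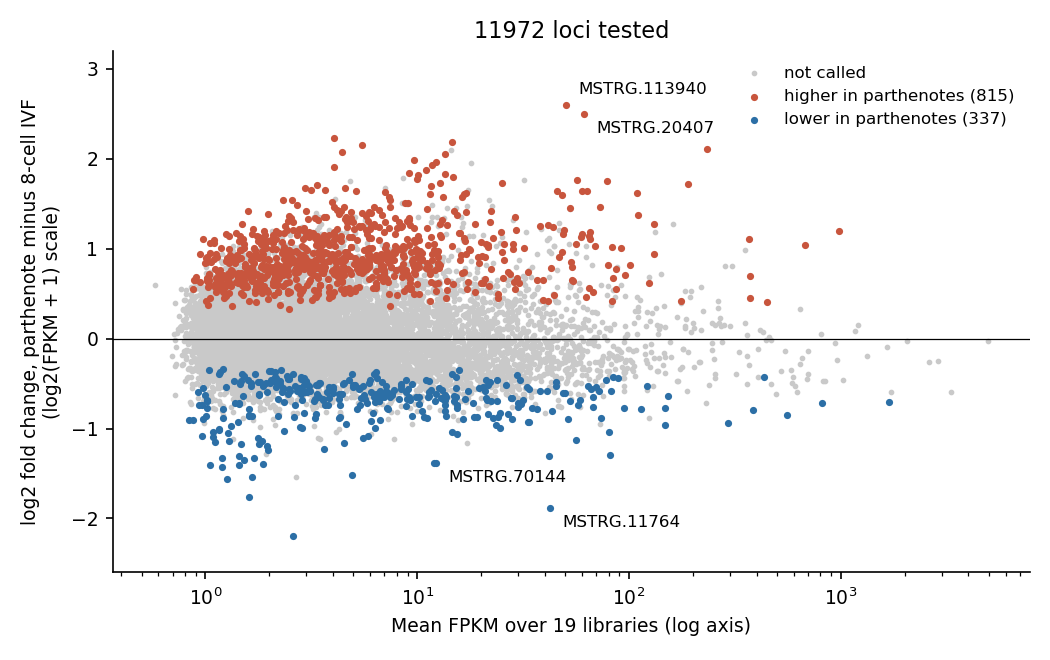
Each point is 1 of the 11972 loci tested, with its mean FPKM over the 19 libraries on a log axis and its log2 fold change, parthenote minus 8-cell IVF. The 815 higher and 337 lower loci are coloured, both kinds occur from about 1 FPKM to the abundant loci, and MSTRG.113940 and MSTRG.20407 have the largest rises, 2.60 and 2.50.

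Calls occurred at every level of expression. The weakest class, 4197 loci averaging below 2 FPKM, held 188 higher (4.48%) and 71 lower ones (1.69%). The 5620 loci between 2 and 10 FPKM held 450 (8.01%) and 149 (2.65%), and the 1988 between 10 and 100 FPKM held 162 (8.15%) and 106 (5.33%). In the most abundant class, from 100 FPKM upwards, 15 rose and 11 fell among 167 loci. The median of the higher loci's mean levels was 2.16 FPKM in IVF embryos and 5.37 FPKM in parthenotes, and that of the lower loci went from 7.14 to 4.21 FPKM. By structure, 7.30% of the 4861 single-transcript loci rose and 2.94% fell, beside 5.33% and 2.70% of the 3037 loci with 5 or more transcripts. Differences between these classes were not tested.

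Shares were taken of the FPKM sum over loci, each counted by its transcript with the highest mean, so other transcripts are left out. The higher loci held from 3.51% to 4.84% of this sum in IVF libraries and from 6.37% to 16.7% in parthenotes. Parthenote replicate 4 held the 16.7%, and the next parthenote held 11.05%. The lower loci held from 6.47% to 7.66% in IVF libraries and from 2.64% to 5.22% in parthenotes, with replicate 4 again at the extreme. Since the same libraries chose the loci, the shares give the size of the change only. Replicate 4 was the highest of the 19 libraries at 471 of the 815 higher loci (57.8%), against 19.5% of all loci tested. The higher loci were called with replicate 4 among the parthenotes, so these percentages are not like for like. Without it 928 loci were called higher.

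Few loci separated the groups without overlap. Every parthenote was above every IVF library at 101 loci (0.844% of those tested) and below every one at 21 (0.175%). Among abundant loci, the called locus with the highest mean of all higher ones had from 401 to 815 FPKM in IVF libraries, with a median of 498, and from 618 to 1862 in parthenotes, with a median of 1303. The groups overlapped at their edges, and a mean of 554.3 FPKM stood beside one of 1284 FPKM (limma, adjusted p = 0.00119). The most abundant of the lower loci had from 1930 to 2298 FPKM in IVF libraries, with a median of 2134, and from 474 to 1965 in parthenotes, with a median of 1366. The IVF libraries lay close together, the parthenotes were spread more widely, the highest of them above the lowest IVF library, and the log2 fold change was -0.71 (SE 0.20; limma, adjusted p = 0.0287). Both loci were chosen after their values were seen, by their abundance.

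Loci were considered for naming if called, averaging 10 FPKM or more where they were higher, and there exceeding the other group's median in 75% of libraries or more. This left 243 higher and 131 lower ones, and 113 and 9 of them changed by at least 2-fold. The 2 that rose most and the 2 that fell most are described by identifier.

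Locus MSTRG.113940, assembled as 16 transcripts, had from 3.24 to 30.4 FPKM in IVF libraries, with a median of 6.73, and from 14.96 to 212 FPKM in parthenotes, with a median of 46.3. It lay above every IVF library in 8 of 11 parthenotes, and the other parthenotes, replicates 3, 4 and 5, lay below IVF replicates 5 and 6 and above the remaining IVF libraries. The log2 fold change was 2.60 (SE 0.51, limma, adjusted p = 0.00398). All 14 of its tested transcripts were higher. In late 8-cell IVF libraries it ran from 0.063 to 18.7 FPKM. The locus whose levels followed it most closely over the 19 libraries, at a Spearman correlation of 0.97, lay 30 numbers away in the table and averaged 65.4 FPKM in IVF embryos and 357 FPKM in parthenotes. Reads that such neighbours could share were not separated.

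Locus MSTRG.20407, with 3 transcripts, had from 3.03 to 33.6 FPKM in IVF libraries, with a median of 15.5, and from 37.6 to 237 FPKM in parthenotes, with a median of 66.4. The groups did not overlap. The log2 fold change was 2.50 (SE 0.43, limma, adjusted p = 0.00175). In late 8-cell IVF libraries the locus ran from 0.331 to 127 FPKM, with a median of 35.3, and overlapped both groups. Parthenote replicate 4 held the highest value, and without it the fold change was 2.34. A further 201 loci had a Spearman correlation of at least 0.8 with it over the 19 libraries, a measure that includes the difference between the groups. With depth as a covariate the fold changes of MSTRG.113940 and MSTRG.20407 were 2.62 and 2.33, and neither passed (limma, adjusted p = 0.0683 and 0.0592). With the 4 shallowest parthenotes they were 2.72 and 1.89 and did not pass either (limma, adjusted p = 0.0526 and 0.0882).

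Locus MSTRG.11764, with 3 transcripts, had from 47.2 to 92.4 FPKM in IVF libraries, with a median of 55.7, and from 4.15 to 76.3 FPKM in parthenotes, with a median of 7.90. Parthenotes fell into 2 sets. Replicates 1, 3, 6, 7 and 8 had 41.9, 36.5, 56.9, 76.3 and 40.5 FPKM, of which replicates 6 and 7 lay within the IVF range. Replicates 2, 4, 5, 9, 10 and 11 had 4.76, 4.15, 6.75, 5.85, 7.90 and 7.12 FPKM, far below that range. In all, 9 of 11 parthenotes lay below every IVF library. No parthenote lay between 7.90 and 36.5 FPKM. A gap of at least 2 on the log2 scale with 3 or more parthenotes on each side was seen at 5 of the loci tested, and among IVF libraries at 4. The log2 fold change was -1.89 (SE 0.51, limma, adjusted p = 0.0240), a mean over both sets. The call did not hold with depth as a covariate (-1.73, adjusted p = 0.202), with no filter (-1.89, adjusted p = 0.184), with all 3 groups in one limma fit (-1.89, adjusted p = 0.067) or with the 4 shallowest parthenotes (-1.78, adjusted p = 0.0621). In late 8-cell IVF libraries it ran from 0.144 to 20.3 FPKM, with a median of 1.04.

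Locus MSTRG.70144, with 2 transcripts, had from 12.4 to 26.7 FPKM in IVF libraries, with a median of 19.3, and from 3.2 to 11.6 FPKM in parthenotes, with a median of 7.51. Every parthenote was below every IVF library. The log2 fold change was -1.39 (SE 0.20, limma, adjusted p = 0.000599), and it passed under each of the 35 other settings tried, from -1.76 to -1.03. Late 8-cell IVF libraries ran from 5.05 to 40.2 FPKM and overlapped both groups. By the same measure, 64 loci had a correlation of at least 0.8 with it.

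**Figure D3:**
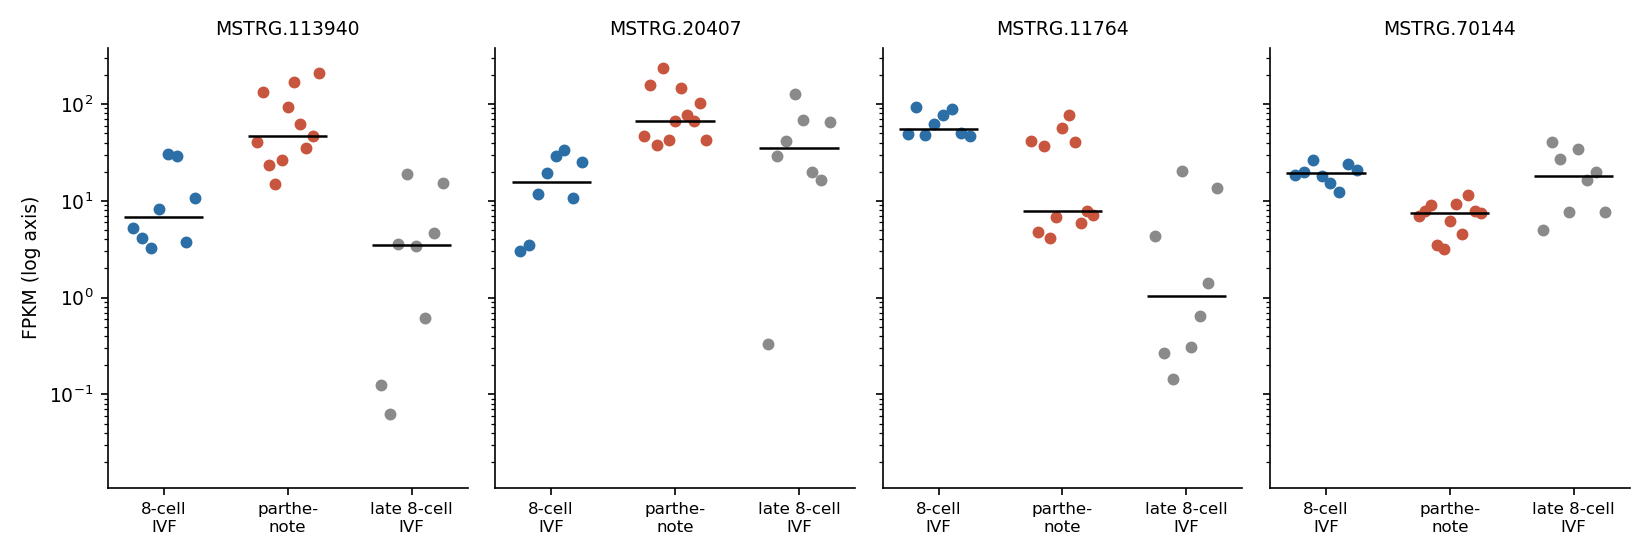
Each point is 1 library, with FPKM on a log axis and a line at the group median, for the 2 loci that rose most and the 2 that fell most in parthenotes by the naming rule. MSTRG.20407 and MSTRG.70144 separate parthenotes from 8-cell IVF without overlap, and the parthenotes of MSTRG.11764 fall into 2 sets, from 4.15 to 7.90 and from 36.5 to 76.3 FPKM.

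Called loci were not evenly spread over the locus numbers, which give the order of the table. Of the higher loci, 19.5% were followed by another higher locus as the next one tested, beside 6.81% of all loci being higher. For the lower loci it was 15.1% beside 2.81%. In windows of 500 locus numbers with at least 40 loci tested, of which there were 159, the median share of higher loci was 5.36%. In 26 windows no locus was higher, and in 8 windows 20% or more were. The files give no position for a locus, so what a window corresponds to in the genome is not known.

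The 5 windows with the most higher loci held 98 of them among 431 tested and 2 lower ones, which is 12.02% of all higher loci on 3.60% of those tested. They covered locus numbers 14001 to 14500, 34001 to 34500, 59001 to 59500, 69001 to 69500 and 89001 to 89500. In the window with the highest share, from 34001, 18 of 60 loci tested were higher and 0 lower (limma). The median level of the 98 loci ran from 1.47 to 2.77 FPKM in IVF libraries and from 3.18 to 10.7 FPKM in parthenotes. In each of the 5 windows parthenote replicate 4 was the highest library. Without it the windows held 105 higher loci and the parthenote levels ran to 6.78 FPKM, and with quantile normalization they held 90. With depth as a covariate all 98 kept their direction and 88 had an unadjusted p under 0.05. Of all 1152 called loci, 1152 kept their direction and 1020 had such a p, a like share. Late 8-cell IVF libraries ran from 1.66 to 6.07 FPKM at these loci and overlapped both groups. The windows were chosen for their calls, so these values describe them and test nothing, and the part of replicate 4's own profile in them beyond the counts without it was not tested.

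**Figure D4:**
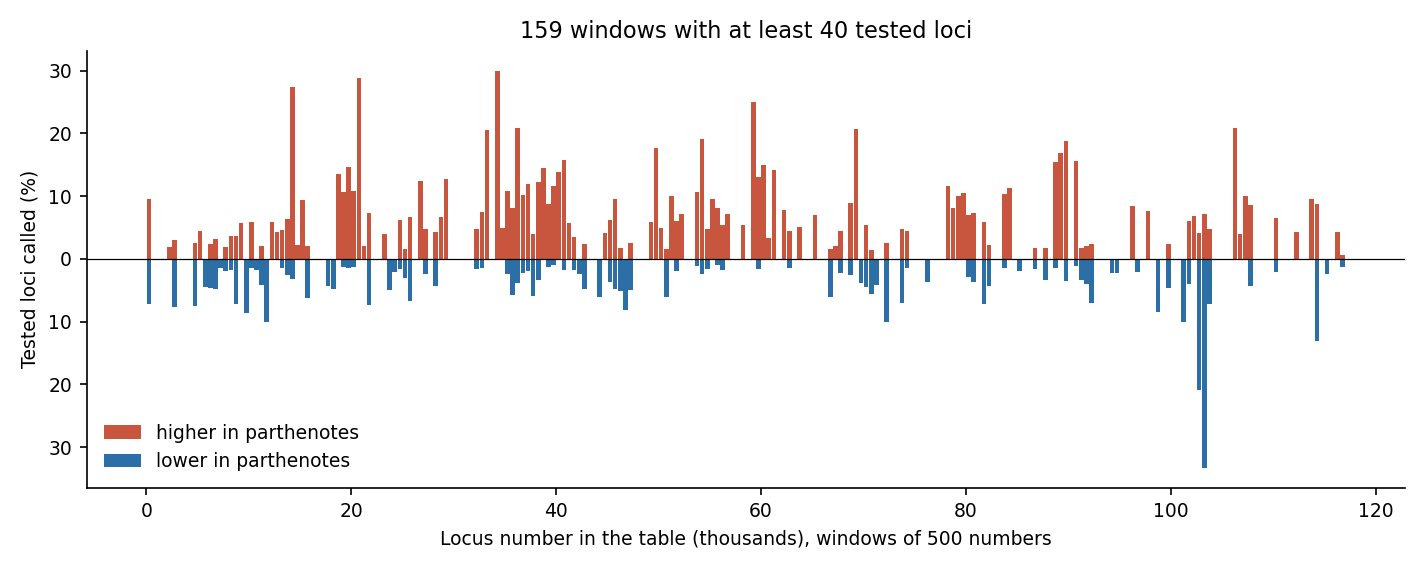
Bars give, for each of 159 windows of 500 locus numbers with at least 40 loci tested, the percentage called higher in parthenotes (upwards) and lower (downwards, as positive percentages). Higher loci peak at 30% in the window from 34001, and lower loci peak between 102501 and 103500.

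The longest unbroken series of lower loci was 9 tested loci in a row, numbered 103411 to 103431, each assembled as 1 transcript. Of the 21 loci in this stretch, 12 did not pass the filter, 4 of them at 0 in each of the 19 libraries, and 6 of the other 8 had a higher mean in IVF embryos. The mean level of the 9 loci was 2.25 FPKM ± 0.908 (SD, n = 8) in IVF libraries and 0.494 FPKM ± 0.552 (SD, n = 11) in parthenotes. Parthenote replicates 5 and 10, both at 1.53 FPKM, were above the IVF replicates 2 and 5, at 1.13 and 0.825 FPKM, so the groups overlapped. The other 9 parthenotes ran from 0.043 to 0.679 FPKM, below every IVF library. Log2 fold changes ran from -1.54 to -0.89 (limma, adjusted p from 0.000433 to 0.0206). All 9 were called without parthenote replicate 4 and with quantile normalization, and 2 of 9 with depth as a covariate. Late 8-cell IVF libraries, which share their request number with the parthenotes and their cross with the IVF group, had a median of 0.808 FPKM and at most 1.39 FPKM. No 2 of these loci had identical values, but reads that neighbours could share were not separated.

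**Figure D5:**
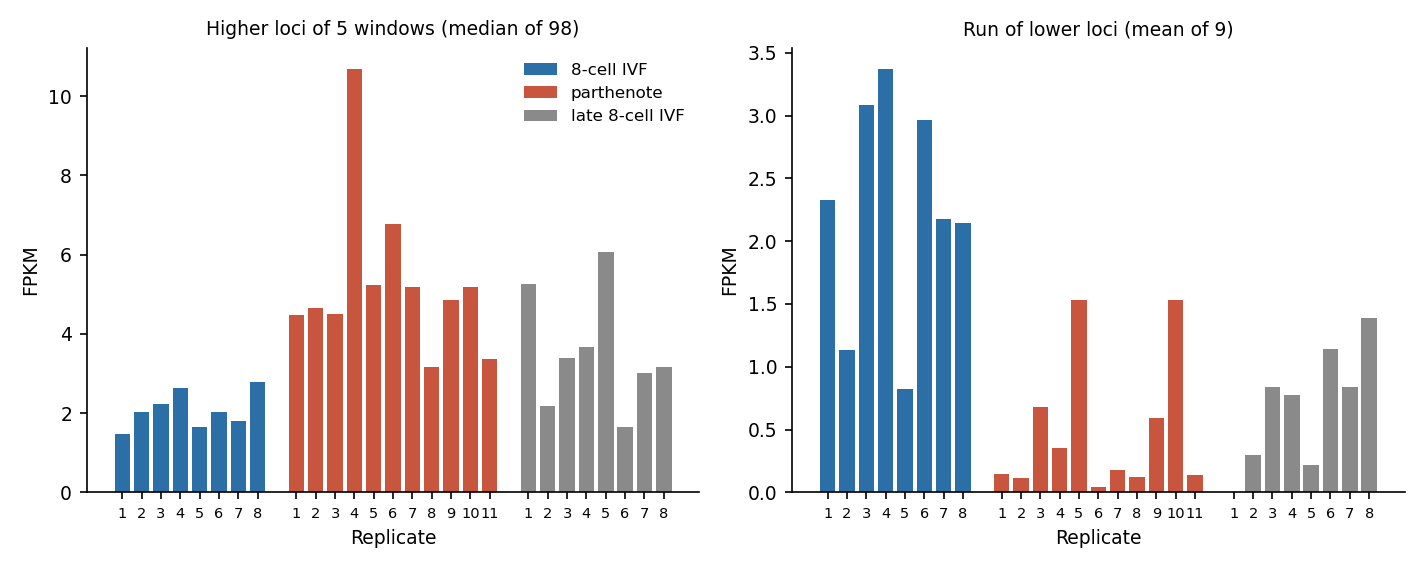
Bars give FPKM per library, ordered by replicate number within the group, as the median of the 98 higher loci of the 5 windows with the most higher loci (left) and the mean of the 9 neighbouring lower loci (right). On the left parthenote replicate 4 reaches 10.7 FPKM and the IVF libraries stay at or below 2.77 FPKM, and on the right parthenote replicates 5 and 10, at 1.53 FPKM, stand above the other parthenotes.

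Single transcripts were tested in the same way, under a filter that parthenote-only features pass more easily, and their split also depended on the scaling. Of 31064 transcripts tested, 1848 were higher (5.95%) and 973 lower (3.13%) in parthenotes, together 9.08%. It was 1526 against 1453 after rescaling to a common FPKM sum, 1896 against 1201 with median-of-ratios factors and 1888 against 1997 with quantile normalization. With the 4 shallowest parthenotes it was 128 against 145, under a filter that a transcript expressed only in those 4 cannot pass. At least 1 transcript was higher at 930 loci, of which 807 were called higher as loci, and at least 1 was lower at 414 loci, of which 335 were called lower. At 5774 loci with several transcripts tested, transcripts were called in opposite directions at 0 (limma, with 8906 transcripts at an unadjusted p under 0.05). Among such loci, 269 of the 488 with a higher transcript had each tested transcript higher, and 135 of the 244 with a lower one had each lower. The transcript with the highest mean differed between the groups at 367 of the 5774 loci (6.36%), and at 62 of these the transcript that led in parthenotes was called higher or the one that led in IVF embryos lower. Transcripts of a locus share reads, so these assignments are uncertain.

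Many loci were listed at 0 throughout one group, 15757 in the IVF libraries and 6248 in the parthenotes, but few of them were seen in most libraries of the other: 114 in at least 7 parthenotes and 47 in at least 5 IVF libraries. By group medians and without the filter, 113 loci went from a median under 0.1 FPKM in IVF libraries to at least 1 FPKM in parthenotes, to a median level of 1.32 FPKM and at most 9.49 FPKM. The opposite was seen at 71 loci, at a median of 1.39 FPKM and at most 2.89 FPKM in IVF libraries. A single transcript was assembled at 102 of the 113 and 64 of the 71. Tested with no filter, where 0.183% of 75279 loci were higher and 0.0996% lower, 0 of the 113 and 22 of the 71 passed (limma), with 73 and 52 at an unadjusted p under 0.05. The medians of the same libraries chose these loci, so how many passed describes them and tests nothing. Without parthenote replicate 4, the median rule gave 140 loci in place of the 113 and 66 in place of the 71. A single locus was listed at 0 in each IVF library and above 0 in each parthenote. It ran from 0.087 to 10.6 FPKM, with a median of 1.19, and was above 0 in 1 late 8-cell IVF library, at 0.353 FPKM. No locus was listed at 0 in each parthenote and above 0 in all 8 IVF libraries, and 2 were above 0 in 7 of them. Parthenotes had 11 libraries to 8 and a mean relative depth of 1.201 ± 0.241 (SD, n = 11) beside 0.896 ± 0.0762 (SD, n = 8), and the part of these in the counts of weak loci was not tested.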

How the data were processed

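The authors deposited FPKM per assembled transcript. FastQC 0.10.1, TopHat2 2.1.0 and StringTie are named in the submitters' processing notes, whereas the build, annotation and filters were not given in the sources used here. Of the identifiers, 0 matched a RefSeq gene table (ARS-UCD2.0), and the number of unused columns of per-sample values was 0. The transcript with the highest mean over the 19 libraries stood for its locus. Features reaching 1 FPKM in 8 or more of them were tested, a filter that a locus expressed only in parthenotes passes more easily. limma 3.58.1 in R 4.3.3 (trend and robust settings) was fitted to log2(FPKM + 1) of the 2 groups, two-sided, adjusted by Benjamini and Hochberg over all features tested at 0.05. Measures of a whole library were compared by exact permutation tests, two-sided, in Python 3.11.15. The windows, the neighbouring series, the limits for switched loci, the gap measure and the comparison of shallow parthenotes were chosen after the data were seen, and members and tests were chosen with earlier results of these data known. The naming rule, stated with the loci it chose, names 2 loci in each direction where identifiers have no symbol; lists of marker and imprinted genes were not analysed here.

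Total depth is unknown from FPKM. Relative depth came from ratios of low transcripts (0.05 to 5 FPKM, above 0 in at most 7 libraries), which pile up at ratios of whole reads, and all library pairs (100%) lay within 0.03 log2 of the fitted depths. On simulated data with 11972 loci the fit recovered 74% of 100 loci changed by a log2 fold of 1 and 92% of 100 changed by 2, with 8 false calls. For 31064 transcripts it recovered 67% and 100% of 100 each, with 8 false calls. The changed features all averaged at least 2 FPKM. Residuals were shuffled over the libraries separately for each feature. The simulated data therefore held no correlation between features, no outlying library and no wider spread among parthenotes. The number of false calls in the real data cannot be read from them.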

Additional observations from a re-analysis of the deposited data

How the results depend on the processing

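The shallow parthenotes and the unblocked fit of replicates 1 to 8 were added as settings after the data were seen. Some settings moved the 1152 called loci, of 11972 tested, by over 1.5 times. No filter gave 213 of 75279 tested, and 5 FPKM in 8 libraries gave 615 of 3967. Of the 516 main calls tested at 5 FPKM, 515 were still called. All 3 groups in one fit gave 382 of 11972, the depth covariate 93 of 11972 and the 4 shallowest parthenotes 128 of 9540. For the 2821 of 31064 transcripts, no filter gave 939 of 131643 and 5 FPKM gave 1335 of 9086. All 3 groups gave 773, the depth covariate 158 and array weights 4335, each of 31064, and the 4 shallowest parthenotes 273 of 25786. Counts from different numbers tested are not like for like. Leaving out 1 library gave 670 to 1289 loci and 1381 to 3259 transcripts; transcripts were 1387, 1381, 1782, 1589, 1792 and 1529 without IVF replicate 1, 2, 3, 5, 6 or 7 and 1719 without parthenote replicate 6. The cause was not tested. Detected loci differed by 2293 when counted from 0.1 FPKM and by 327.5 when counted from 5 FPKM (exact permutation tests, adjusted p = 0.0469 and 0.00703) and by 713 to 1132 with 1 library left out. No named locus and no difference in a measure per library changed sign under any setting run, but higher calls no longer outnumbered lower ones with the 4 shallowest parthenotes (59 against 69 loci, 128 against 145 transcripts) and, for transcripts, with quantile normalization (1888 against 1997). In the fit with those 4 parthenotes, the filter of 8 libraries shut out features expressed only in them. The distance to the own group passed under each of its 23 alternatives.

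The labels give both groups replicate numbers, but nothing ties them to shared animals or days. Deviations of same-numbered libraries correlated from -0.30 to 0.19, and in each group 1 library of 8 correlated best with its own number. With the replicate block, 729 loci and 1670 transcripts were called, against 1173 and 3108 for the same libraries without it, and MSTRG.11764 did not pass (adjusted p = 0.104 with the block in limma, and 0.0718 without it). Unknown total depth limits what can be said of loci under 1 FPKM.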
